A study of Mus musculus with 30 samples.

Results

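The mitosis and kinetochore genes are 42 genes whose products carry a cell from entry into mitosis to the cut that parts the daughter cells. They were chosen by name, and each name was found once in both count tables, 42 genes of 55471 in all. Transcripts were measured by bulk RNA sequencing in sorted bone marrow cells of C57BL/6 mice, with each sample a pool of cells from 4 mice. Hematopoietic stem cells (HSCs) came from mice given phosphate-buffered saline (PBS, 7 pools) or MTP10-HDL (6 pools), and multipotent progenitors (MPPs), their more numerous offspring, from mice given PBS (2 pools) or MTP10-HDL (3 pools). MTP10-HDL is a high-density lipoprotein particle that carries a muramyl tripeptide, a piece of bacterial cell wall read by the sensor Nod2. The labels of the MPP samples describe 3 injections of it in 5 days, marrow taken a day after the last, removal of lineage-positive cells on magnetic beads and flow sorting. No schedule is stated for the HSC samples, no animal carries an engineered allele in the labels, and age is not given in the sources used here. The series' chromatin accessibility samples were not analysed here.

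A cell enters mitosis when Cdk1, bound to a cyclin A or B, is switched on by Cdc25 phosphatases, and the kinases Plk1, Aurora A and Aurora B then drive spindle assembly and chromosome alignment. The kinetochore, a protein plate built on centromeric chromatin, grips spindle microtubules through the Ndc80 complex, and the spindle checkpoint holds back the anaphase-promoting complex until every chromosome is attached. Transcripts of these genes gather in G2 and mitosis, so their level in a mixed population is commonly read as a sign of cycling. Most HSCs of an undisturbed marrow are quiescent, whereas MPPs divide more often.

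The HSC libraries held 4064155 to 7879858 counts. The MPP libraries held 11252479 and 14691375 counts with PBS and 17555267 to 32769369 with MTP10-HDL. The cell types were prepared with different kits, so levels were compared within a cell type. Levels are counts scaled to a common library total (CPM) with the trimmed mean of M values (TMM). The labels of both populations were checked against surface markers: the HSC marker Slamf1 was at 23.95 to 47.9 CPM in HSC libraries and 0.649 to 2.03 CPM in MPP libraries, and the MPP marker Flt3 at 65.2 to 178 CPM and 665 to 900 CPM. Not every marker followed its label, and the kits differ here too. Of 17 HSC identity genes 6 had HSC libraries all above the MPP libraries, 9 overlapped and 2 lay the other way, Procr (16.5 to 26.6 CPM in HSCs and 27.3 to 61.2 CPM in MPPs) and Hoxa9 (31.5 to 90.7 CPM and 135 to 270 CPM). Of 7 MPP identity genes 2 were higher in MPPs, 4 overlapped and Mpo lay the other way (435 to 2874 CPM in HSCs and 272 to 388 CPM in MPPs). Other cells left traces that moved with treatment, and their part in the results below was not tested. Summed over 17 erythroblast markers, HSC libraries held 796 to 1600 CPM with PBS and 457 to 871 with MTP10-HDL, and MPP libraries 699 to 964 and 536 to 612. None of the 17 had a log2 fold change above 0 in HSCs and 2 of 17 did in MPPs. At an edgeR unadjusted p under 0.05, 15 were lower in HSCs and 10 in MPPs, where 4.47% and 4.06% of all genes were. In MPPs 0 of 9 plasma cell markers were higher (median -0.84), with 7 lower at an edgeR unadjusted p under 0.05. Of the B cell markers 6 of 15 were higher there (median -0.25), and of the mature neutrophil markers 8 of 12 (median 0.25). In HSCs 0 of 14 B cell markers (median -1.58) and 0 of 8 plasma cell markers (median -1.74) were higher, and 12 of 12 mature neutrophil markers (median 0.90). These medians were -0.89 for B cell markers without PBS 5, -0.58 for plasma cell markers without PBS 2, and 0.32 for neutrophil markers without MTP10-HDL 1 or 1.38 without PBS 5. Immediate early genes, a rapid transcriptional answer to stimuli, were higher for 2 of 18 in HSCs (median -1.33, 10 at an unadjusted p under 0.05 in edgeR, all lower) and for 0 of 17 in MPPs (median -1.88, 9, all lower). Their summed level was 460 CPM in PBS 2 and 3579 CPM in PBS 3 of the MPPs and 329 to 968 CPM with MTP10-HDL, and the MPP median was 0.25 without PBS 3, with 13 of 17 higher, and -2.90 without PBS 2. With treatment 2 of 17 HSC identity genes were higher in MPPs (median -0.38) and 5 of 7 MPP identity genes (median 0.30). Immunoglobulin genes took 6.20% and 12.5% of the counts of the PBS MPP libraries and 2.76% to 4.26% with MTP10-HDL. Ribosomal RNA took 1.26% and 1.47%, then 0.508% to 0.915%. The platelet gene Gp1bb stood at 0 in every MPP library and was not tested there. No other gene of these lists stood at 0 in every library of a cell type.

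The promoters of these genes were searched for shared motifs. Promoters of late cell cycle genes commonly hold a cell cycle genes homology region (CHR), the element bound by the MuvB core of the DREAM complex, and CCAAT boxes, bound by NF-Y. RefSeq promoters (mouse build GRCm38.p6, 250 bases before to 50 after each start site) were found for 34 of the 42 genes, 36 promoters in all. No entry was found for Ccna2, Cdc25c, Tpx2, Aurkb, Incenp, Spc24, Kif20a or Smc4. The CHR was searched as TTTGAA and the CCAAT box as CCAAT, each on both strands, and the motifs were counted apart even where matches overlapped. A CHR match was present in 29 of the 36 promoters (80.6%), against 17.9% of all 32851 promoters of the same length. A CCAAT match was present in 28 (77.8%), against 37.4%. Both were present in 25 (69.4%, against 6.95%) and neither in 4 (11.1%, against 51.7%).

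The stretches below show how these motifs are laid out in genes on which the results turn: the mitotic kinase, 3 proliferation genes in common use, a motor, a kinetochore subunit, the main mitotic cyclin and a gene with no match. Each is 120 bases of the gene's own strand, with motif matches in capitals (TTTGAA or TTCAAA for the CHR, CCAAT or ATTGG for the CCAAT box). Cdk1 lies at chr10:69352913-69353032 (minus strand), Kif11 at chr19:37376262-37376381 (plus), Ube2c at chr2:164769809-164769928 (plus), Spc25 at chr2:69206214-69206333 (minus), Ccnb1 at chr13:100786487-100786606 (minus) and Mad2l1 at chr6:66535101-66535220 (plus), all ending at the base before the start site. Top2a at chr11:99024200-99024319 (minus) and Mki67 at chr7:135716451-135716570 (minus) end further upstream, at positions -11 and -72, since another annotated transcript of each begins there.
Cdk1: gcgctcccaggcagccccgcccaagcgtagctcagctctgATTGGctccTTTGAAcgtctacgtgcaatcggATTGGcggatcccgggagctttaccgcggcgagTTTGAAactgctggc
Top2a: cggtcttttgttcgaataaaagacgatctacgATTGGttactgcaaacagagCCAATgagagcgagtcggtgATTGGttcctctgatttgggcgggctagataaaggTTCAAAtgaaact
Mki67: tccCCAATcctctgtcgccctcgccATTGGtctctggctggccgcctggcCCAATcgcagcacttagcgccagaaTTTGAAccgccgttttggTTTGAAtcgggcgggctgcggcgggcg
Ube2c: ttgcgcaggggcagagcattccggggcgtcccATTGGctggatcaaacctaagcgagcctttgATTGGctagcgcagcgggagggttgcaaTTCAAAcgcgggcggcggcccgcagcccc
Kif11: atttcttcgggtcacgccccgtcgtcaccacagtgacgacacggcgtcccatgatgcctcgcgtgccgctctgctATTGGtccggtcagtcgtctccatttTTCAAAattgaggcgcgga
Spc25: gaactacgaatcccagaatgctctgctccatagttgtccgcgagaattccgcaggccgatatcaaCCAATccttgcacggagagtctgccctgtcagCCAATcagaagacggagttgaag
Ccnb1: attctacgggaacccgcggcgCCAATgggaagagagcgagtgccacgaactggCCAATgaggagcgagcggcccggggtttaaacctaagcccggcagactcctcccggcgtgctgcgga
Mad2l1: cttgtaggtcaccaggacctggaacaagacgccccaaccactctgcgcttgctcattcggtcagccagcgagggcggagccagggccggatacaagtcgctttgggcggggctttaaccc

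Cdk1 carried CHR matches at positions -71 and -15 from its start site (the base before the start is -1) with CCAAT matches at -80 and -48 in the stretch shown. Kif11, which encodes the motor that pushes spindle poles apart, held 1 of each, at -19 and -45. The CHR matches of Mki67, at -116 and -98, lay next to 3 CCAAT matches. Spc25 held 2 CCAAT matches before the start and a CHR match 25 bases into the transcript, outside the stretch shown. Ccnb1 held 2 CCAAT matches and no CHR match with these letters, and Mad2l1 had no match of either kind in its 300 bases. Over the 36 promoters the 37 CHR matches had a median position of 3, next to the start site, and the 65 CCAAT matches a median of -71. In MPPs the median log2 fold change (MTP10-HDL over PBS) was 0.33 over the 27 genes with a CHR match and 0.40 over the 7 without, and in HSCs -0.01 and 0.10. These are descriptions with no test.

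**Figure D1:**
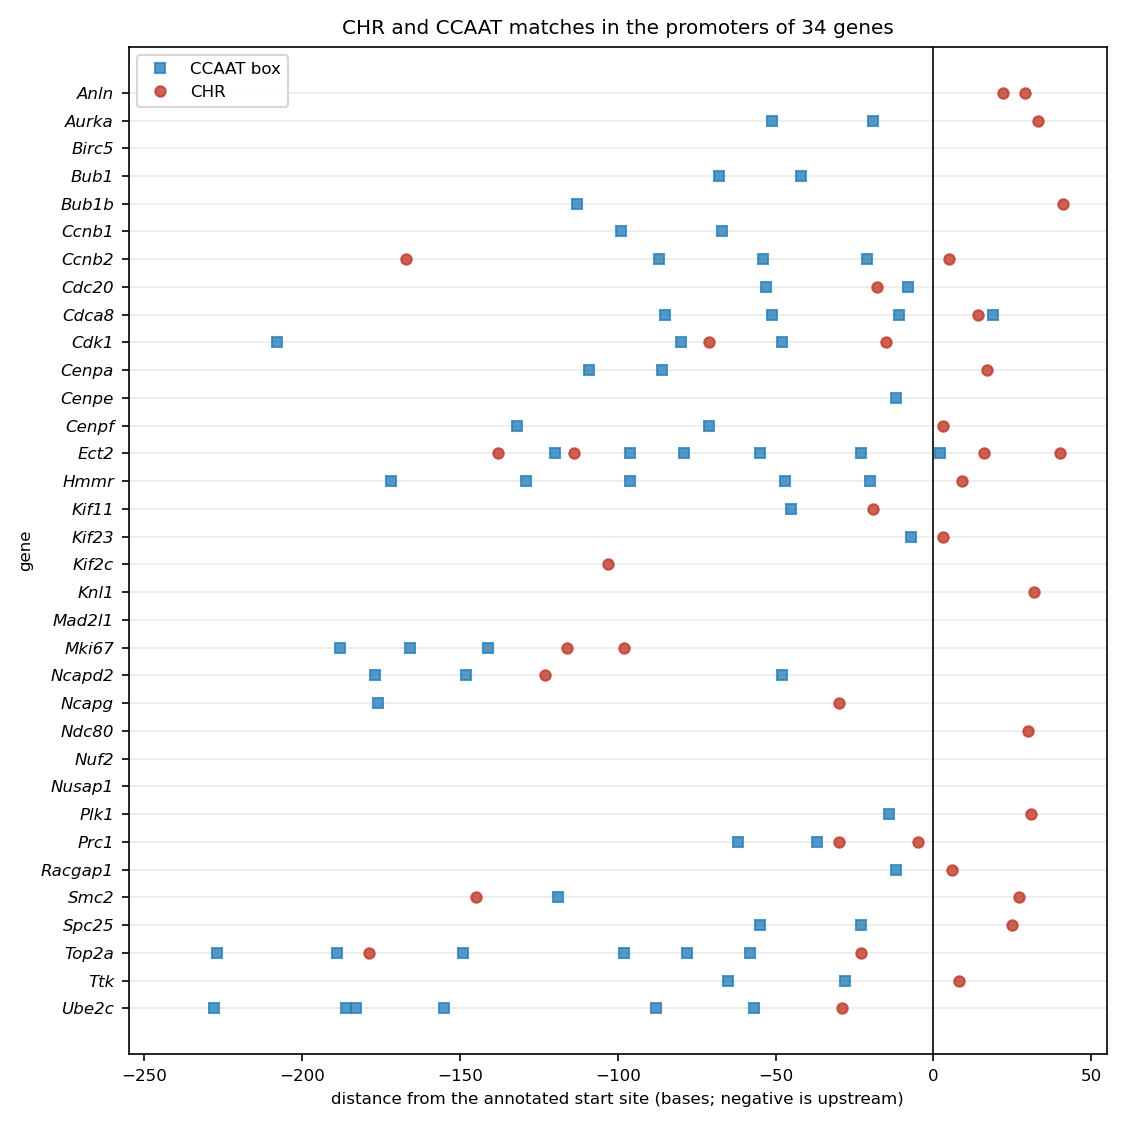
Positions of CHR matches (circles) and CCAAT matches (squares) relative to the annotated start site in bases, for the 34 genes with a RefSeq promoter, 1 row per gene. CCAAT matches lie mostly upstream and CHR matches mostly near the start, with median positions of -71 and 3.

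Across the HSC libraries the 42 genes varied together. After the mean of each treatment was removed, the median Pearson correlation of log2 CPM over the 861 pairs of genes was 0.52, over 13 libraries that share 1 table. Of the pairs, 97.2% had a correlation above 0. Each gene's correlation with the mean of the other 41 had a median of 0.69, from 0.35 for the condensin subunit Ncapg to 0.93 for the spindle protein Nusap1, whereas 16589 other genes had a median of -0.02 with the same mean. Much of this rested on 1 library, MTP10-HDL 1. Without it the median over pairs was 0.24 and the median with the mean of the others 0.44, from -0.07 to 0.79, against 0.01 for the other genes. The genes outside the list with the most similar pattern were Cdca3 (correlation 0.88 over 13 libraries), Kif20b (0.87), Ccnf (0.86), Aspm (0.85) and Bard1 (0.85). Without MTP10-HDL 1 these values were 0.82, 0.56, 0.52, 0.17 and 0.67.

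**Figure D2:**
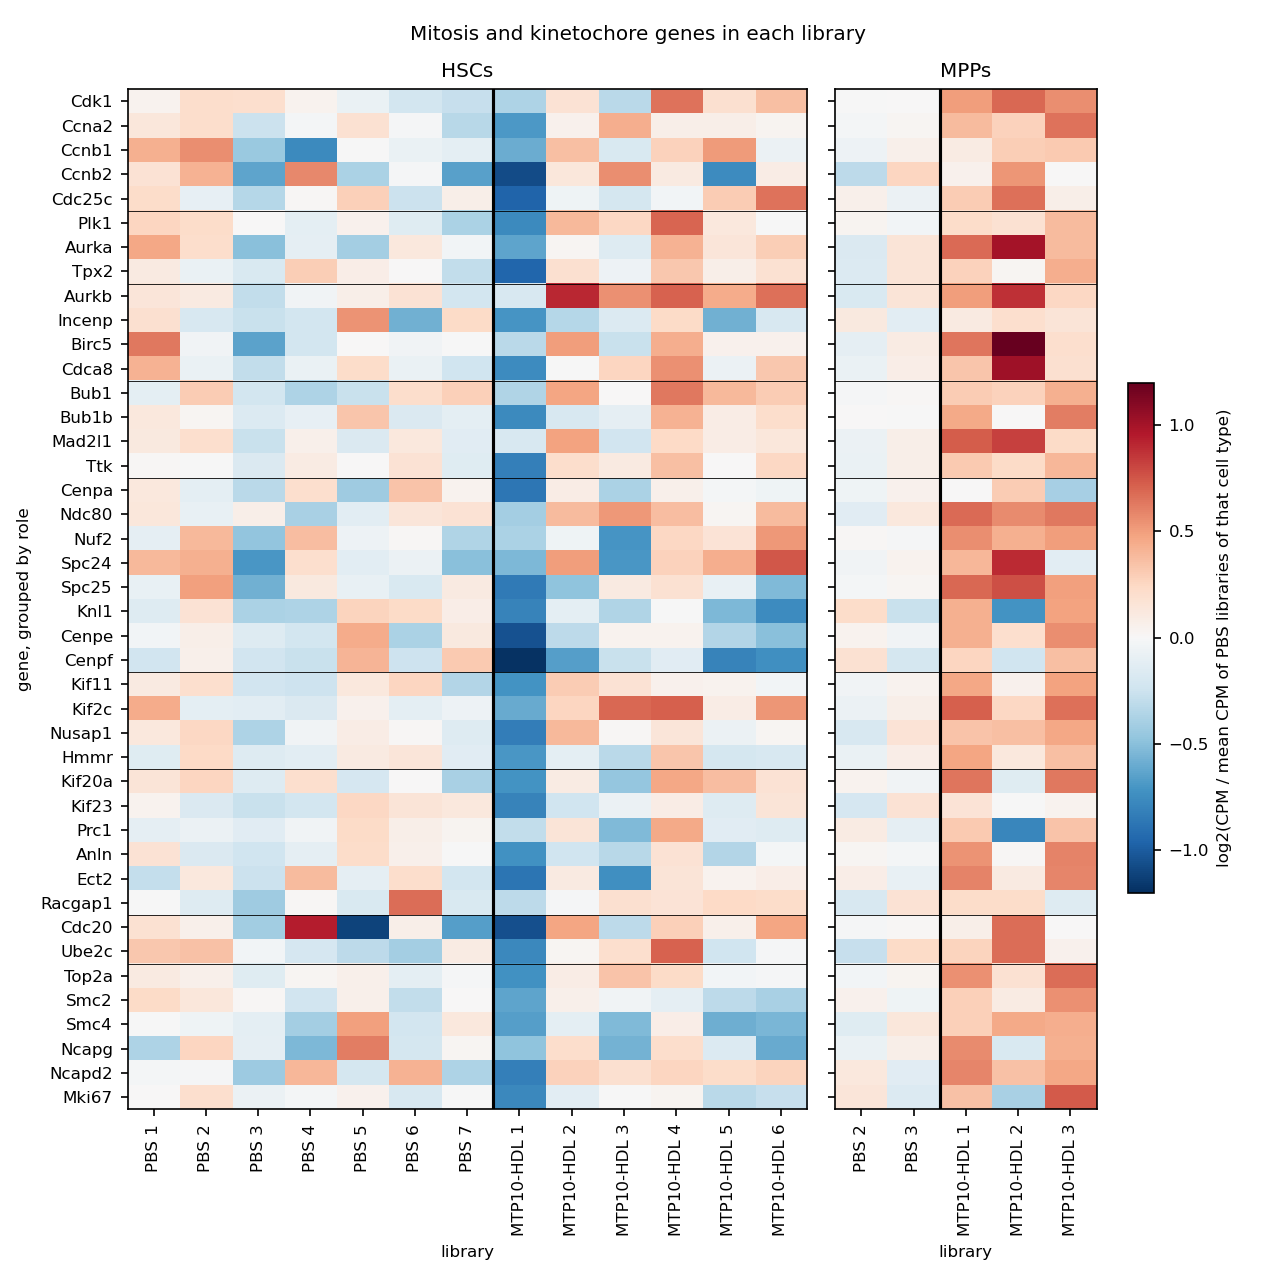
Level of each gene (rows, grouped by role) in each library (columns), as log2 of CPM over the mean CPM of the PBS libraries of that cell type, with the colour saturated at both ends of the scale. In HSCs the column MTP10-HDL 1 is low for nearly every gene and the other columns are mixed, and in MPPs most cells of the 3 MTP10-HDL columns are above the PBS mean.

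In MPPs the mitotic genes stood higher with MTP10-HDL. All 42 genes had a log2 fold change above 0, where 52% of the 15449 genes tested did, and the median was 0.37 against 0.02 over all genes tested. The fold changes ran from 0.00077 (Cenpa, the centromeric histone variant) to 0.88 (Birc5, the survivin subunit of the chromosomal passenger complex). Of the 42 genes 33 were above 0.25, a count not taken over all genes. For 26 genes every MTP10-HDL library lay above both PBS libraries, a pattern seen in 12% of all genes tested, and for no gene below them (12.3% of all genes). The lowest treated library exceeded the higher control by 0.17% (Bub1b) to 41.1% (Cdk1), with a median of 11.4%. This margin was under 1% for Bub1b, Cdc25c and Kif11, and 10% or more for 16 of the 26. The summed level of the 42 genes was 5362 and 5494 CPM in the PBS libraries and 7184, 6474 and 7500 CPM in MTP10-HDL libraries 1, 2 and 3, and these groups did not overlap. In bulk RNA a larger share of dividing cells, more transcript per dividing cell and a changed mixture of sorted cells cannot be told apart.

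No single gene passed the false discovery rate (FDR, Benjamini-Hochberg over all genes tested) of 0.05 in the edgeR quasi-likelihood test in MPPs. That holds for the 42 (lowest FDR 0.644) and for every other gene tested (0% called, lowest FDR 0.0928). Each p-value measures the spread between pools of mice. At an unadjusted p under 0.05, edgeR had 8 of the 42 higher, against 2.17% of all genes, and 0 lower, against 4.06%. DESeq2 called 181 of all genes after adjustment and 0 of the 42, and had 10 higher at an unadjusted p under 0.05. The count of 8 depended on single libraries: it was 18 without MTP10-HDL 2, 2 without MTP10-HDL 1, 2 without PBS 3 and 0 without PBS 2. With any 1 of the 5 libraries left out, 38 to 41 of the 42 genes were higher.

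**Figure D3:**
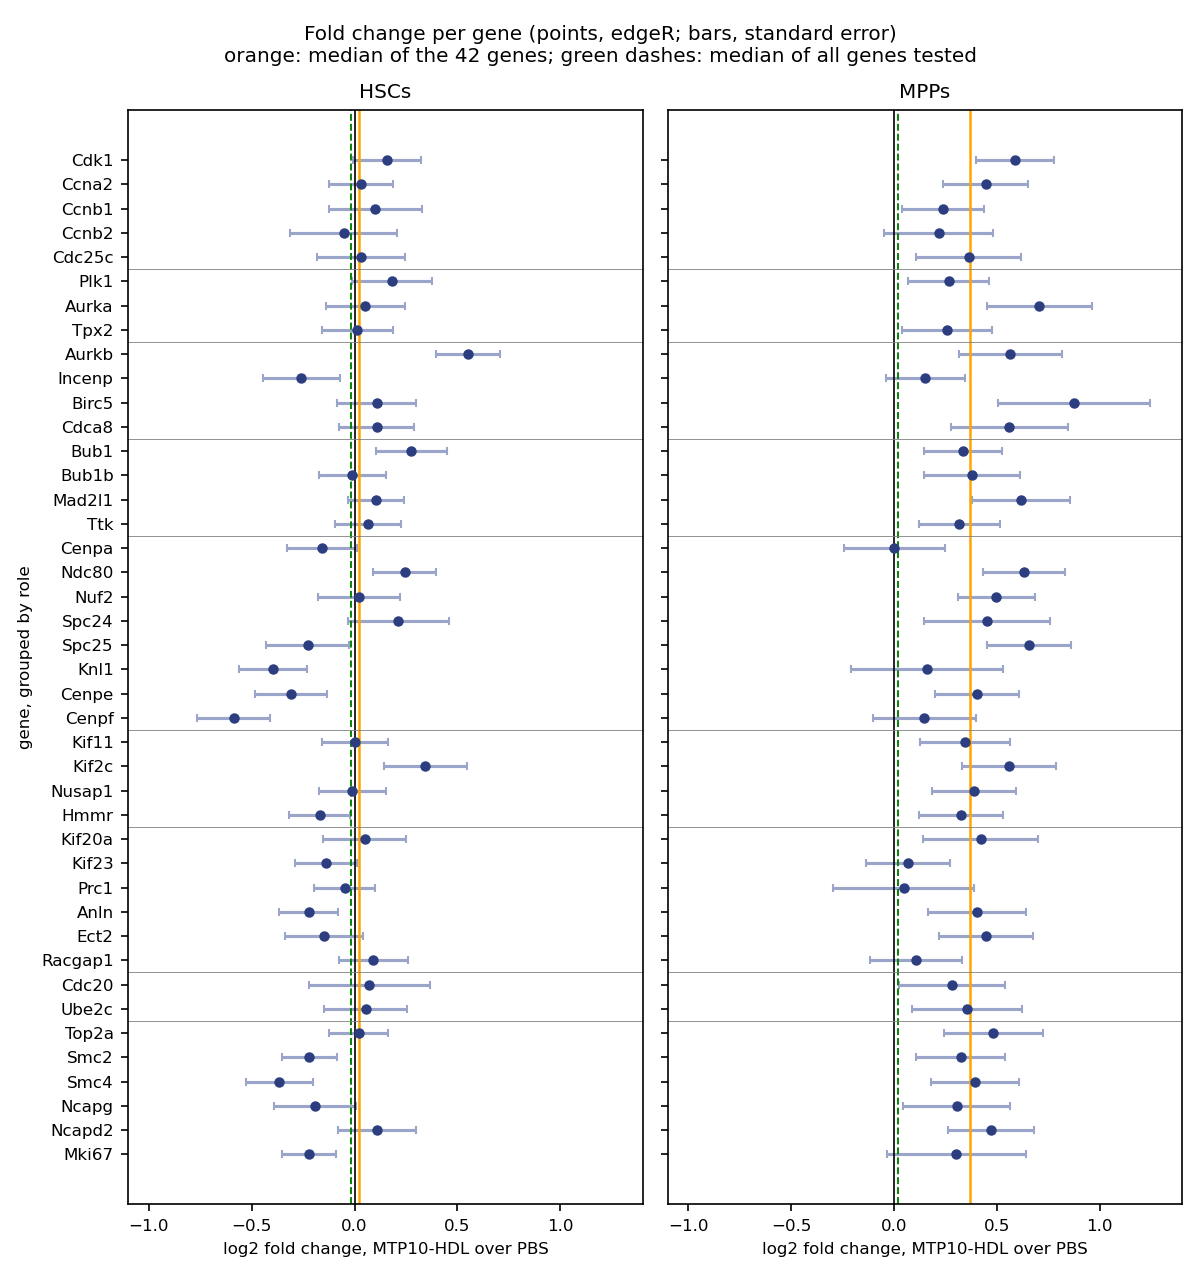
log2 fold change of each gene, MTP10-HDL over PBS (points, edgeR) with its standard error (bars), in HSCs (left) and MPPs (right), genes grouped by role. The orange line is the median of the 42 genes, 0.02 in HSCs and 0.37 in MPPs, and the green dashed line the median of all genes tested.

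Among the genes of mitotic entry, Cdk1 (chromosome 10, 69335146 to 69352912), the kinase that starts mitosis, stood at 102 and 103 CPM in the PBS MPP libraries and at 146, 166 and 152 CPM in MTP10-HDL libraries 1, 2 and 3. Every treated library was above both controls, with a log2 fold change of 0.59 (SE 0.19, edgeR unadjusted p = 0.0156, FDR 0.667). Ccnb1, the cyclin B1 partner of Cdk1, was at 41.4 and 45.04 CPM in controls and at 46.3, 52.9 and 53.9 CPM with MTP10-HDL. Its groups did not overlap either, but the gap was small (log2 fold change 0.24, SE 0.20, edgeR unadjusted p = 0.266). The 5 genes of this role (Cdk1, Ccna2, Ccnb1, Ccnb2, Cdc25c) had a median of 0.36, and 4 of them had groups that did not overlap. Ccnb2 was the exception. The median was 0.21 without MTP10-HDL 2.

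Aurka encodes Aurora A, the kinase of the spindle poles. Its level was 35.7 and 45.04 CPM in controls and 64.7, 80.5 and 52.5 CPM after MTP10-HDL, so the groups lay apart (log2 fold change 0.71, SE 0.25, edgeR unadjusted p = 0.0249, FDR 0.736). Its relatives in this role, Plk1 and the Aurora A activator Tpx2, had values of 0.27 and 0.26. The median of these 3 genes, 0.27, was 0.43 without PBS 3. The chromosomal passenger complex, which corrects faulty attachments and consists of Aurora B (Aurkb), Incenp, Birc5 and Cdca8, had the highest median of the 9 roles, 0.56. Without MTP10-HDL 2 it was 0.32, and only mitotic entry (0.21) and mitotic exit (0.10) stood lower among the 9 roles. Birc5 had the highest fold change of the 42 and also the largest standard error (0.37), with 74.8 and 86.1 CPM in PBS libraries and 126, 225 and 92.7 CPM in MTP10-HDL libraries, where library 2 stood far above the others. Incenp, the scaffold of the complex, had a log2 fold change of 0.15 and overlapping groups.

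The outer kinetochore held the 2 genes of smallest p, Spc25 and Ndc80. Spc25 and Nuf2 are subunits of the Ndc80 complex, named after its member Ndc80, which binds the microtubule. Spc25 (chromosome 2, 69193895 to 69206213) was at 40.4 and 41.6 CPM in controls and at 66.1, 69.9 and 57.7 CPM after MTP10-HDL, with a fold change of 0.66 on the log2 scale (SE 0.20, edgeR unadjusted p = 0.0127, FDR 0.644). Ndc80 (chromosome 17, 71496100 to 71526857) was at 44.98 and 54.0 CPM, then 79.5, 73.4 and 76.9 CPM (0.63, SE 0.20, edgeR unadjusted p = 0.0144). Nuf2 was at 66.7 and 65.0 CPM, then 97.2, 88.6 and 93.3 CPM (0.50, SE 0.19, edgeR unadjusted p = 0.0303). In these 3 genes every treated library was above both controls. The fourth subunit, Spc24, had a log2 fold change of 0.45 with overlapping groups. Knl1, the platform for checkpoint kinases, was at 89.8 and 64.1 CPM in controls and at 103, 46.9 and 108 CPM with MTP10-HDL, and Cenpf at 135 and 102 CPM, then 142, 101 and 152 CPM. The groups overlapped in both, through MTP10-HDL 2, the lowest library for each. Over the 8 genes of the role the median was 0.43, and 4 had groups that did not overlap.

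The spindle checkpoint genes Bub1, Bub1b, Mad2l1 and Ttk all had groups that lay apart, though barely for Bub1b, with a median of 0.36. Mad2l1, which encodes the Mad2 protein that blocks Cdc20, was at 101 and 111 CPM in controls and at 175, 187 and 124 CPM with MTP10-HDL. The same held for the 4 genes of spindle motors and microtubule binding (Kif11, Kif2c, Nusap1, Hmmr), barely for Kif11, with a median of 0.37. Kif2c, the microtubule-shortening kinesin MCAK, was at 39.5 and 43.7 CPM, then 68.4, 49.6 and 66.0 CPM. Mad2l1, Kif2c and Birc5 complete the 8 genes with an edgeR unadjusted p under 0.05 and were singled out after their values were seen.

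The genes of the central spindle and cytokinesis had the lowest median of the 9 roles, 0.25 over 6 genes. This place rested on single libraries: the median was 0.45 without MTP10-HDL 2, when mitotic exit was lowest, and 0.17 without MTP10-HDL 1. Ect2, the exchange factor that activates RhoA at the cleavage furrow, was the 1 gene of this role whose groups did not overlap. Kif23, Prc1 and Racgap1, which build the central spindle, had log2 fold changes of 0.07, 0.05 and 0.11. Cdc20 and Ube2c, which act with the anaphase-promoting complex at mitotic exit, had values of 0.28 and 0.35, and in both MTP10-HDL 3 lay below the higher PBS library. Their median of 0.32 was 0.10 without MTP10-HDL 2 and 0.18 without PBS 2.

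Chromosome structure genes had a median of 0.36, with 4 of 6 groups lying apart. Top2a, the topoisomerase that untangles sister chromatids, was at 731 and 766 CPM in controls and at 1092, 850 and 1194 CPM after MTP10-HDL (log2 fold change 0.48, SE 0.24, edgeR unadjusted p = 0.0822). Mki67, the chromosome surface protein used as a proliferation marker (Ki-67), was at 707 and 571 CPM in controls and at 815, 489 and 1061 CPM with MTP10-HDL. Its groups overlapped, with MTP10-HDL 2 below both controls, and its log2 fold change of 0.30 (SE 0.34, edgeR unadjusted p = 0.399) was 0.55 without that library and 0.03 without MTP10-HDL 3. Among the 16 genes with overlapping groups, 8 overlapped through MTP10-HDL 2 alone, 4 through MTP10-HDL 3 alone and 1 through MTP10-HDL 1 alone.

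**Figure D4:**
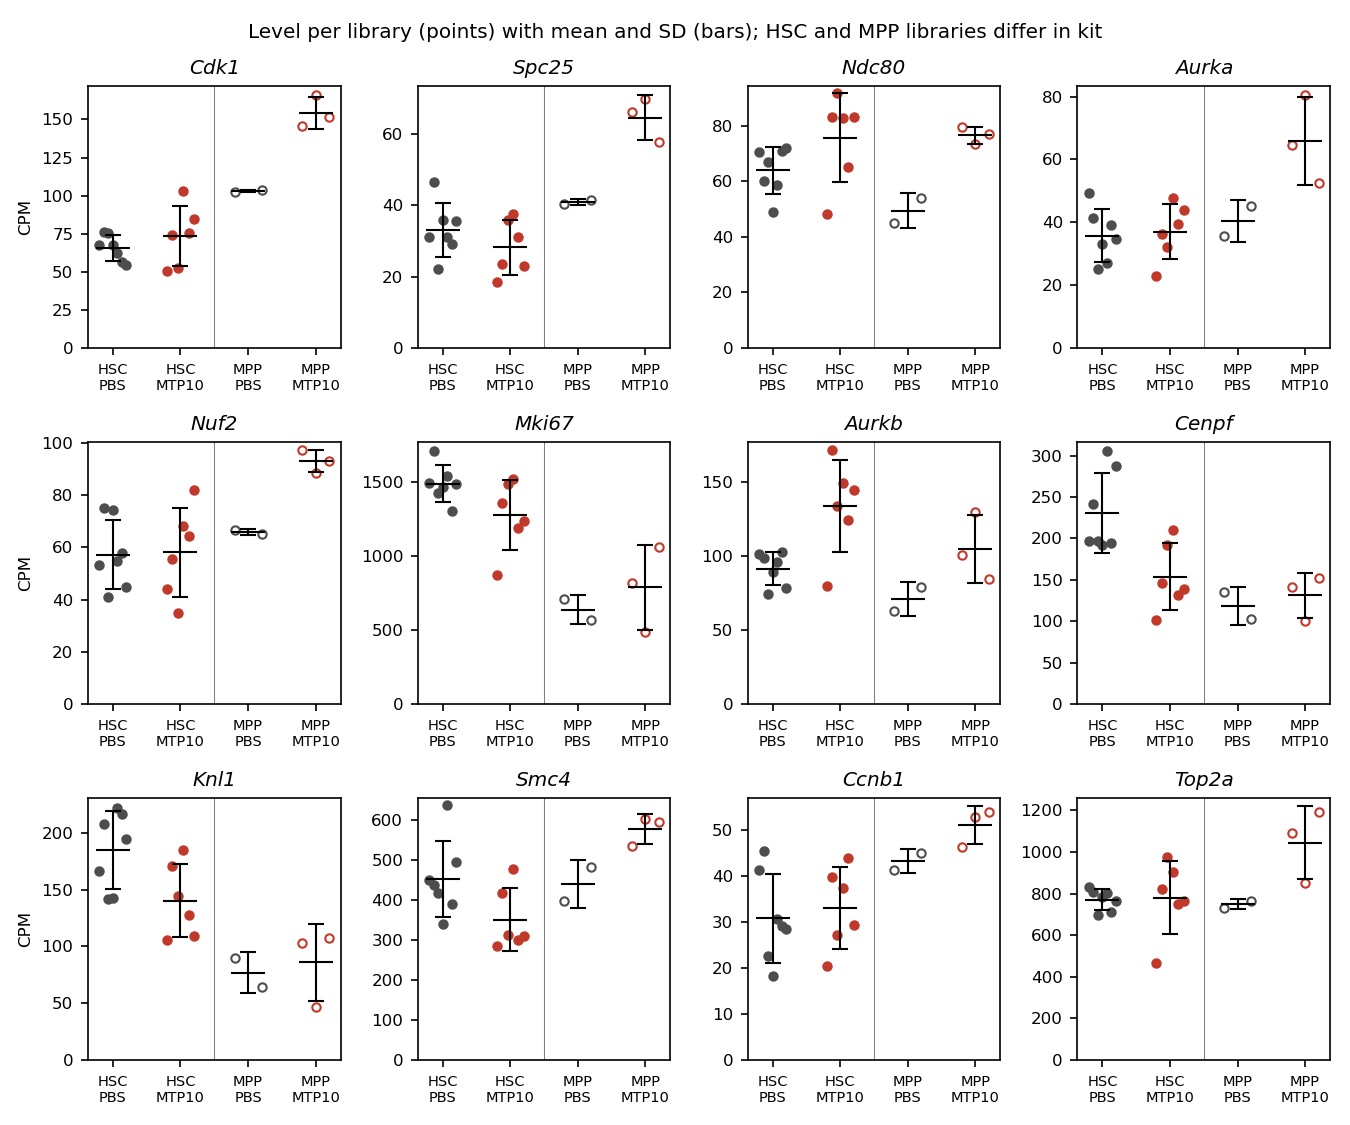
CPM of 12 genes in every library (points: grey PBS, red MTP10-HDL, filled HSC, open MPP) with the mean and SD of each group (black), each panel starting at 0. In MPPs the Cdk1, Spc25, Ndc80, Aurka and Nuf2 points of the treated group lie above all control points, and in HSCs the groups overlap in each of the 12 panels.

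In HSCs the directions were mixed. Of the 42 genes 24 had a log2 fold change above 0, where 47.7% of the 16631 genes tested did. The median was 0.02, against -0.02 over all genes tested, and 34 genes lay within 0.25 of 0. No gene passed an FDR of 0.05 in edgeR, among the 42 (lowest FDR 0.341) or among all genes (0% called, lowest FDR 0.19). At an unadjusted p under 0.05, edgeR had 1 gene higher (2.38%, against 4.36% of all genes) and 3 lower (7.14%, against 4.47%). DESeq2 also had 1 higher and 3 lower. The edgeR shares are not far from those of all genes, so these genes are named below only as a description. After adjustment DESeq2 called 85 of all genes and 0 of the 42. In no gene did the groups lie apart, a pattern seen in 0.174% of all genes for higher and 0.168% for lower. The summed level ran from 6030 over a median of 6655 to 7434 CPM in controls and from 4146 over 6643 to 7719 CPM with MTP10-HDL.

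The library MTP10-HDL 1 was the lowest of the 13 for 31 of the 42 genes and below every PBS library for 32. It also held the highest summed level of 11 monocyte and macrophage markers, 3032 CPM against 179 to 2241 CPM in PBS libraries, and of 12 mature neutrophil markers, 6098 CPM against 114 to 4116 CPM. Their part in the low mitotic level was not tested. Without this library 28 of the 42 genes were higher, where 45.6% of all genes were, with a median of 0.14. At an edgeR unadjusted p under 0.05 stood 5 of them, Aurkb, Kif2c, Ndc80 and Bub1 higher and Cenpf lower, again with no FDR under 0.05. The share of all genes at that p was not counted for this fit.

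Aurkb (chromosome 11, 69045624 to 69051664), the kinase of the passenger complex, had the smallest p of the 42 in HSCs. Its level ran from 74.2 over a median of 95.5 to 103 CPM in the 7 PBS libraries and from 79.6 over 139 to 171 CPM in the 6 MTP10-HDL libraries. Every treated library except MTP10-HDL 1 was above all 7 controls, and the log2 fold change was 0.55 (SE 0.16, edgeR unadjusted p = 0.00258, FDR 0.341). The HSC libraries were also sorted into 3 technical groups from their own counts, not from the labels. The first was the 4 libraries with fewest detected genes (PBS 1 and 4, MTP10-HDL 2 and 3). The second was the 4 others with most ribosomal RNA (PBS 2 and 3, MTP10-HDL 1 and 4), and the third the rest. Within these groups the log2 difference of Aurkb was 0.67, 0.35 and 0.55, and that of the mean of the 42 genes -0.02, -0.13 and 0.03. The genes given by technical group were picked for small p over these same libraries, so their values are a description and no independent check. The other passenger genes had log2 fold changes of 0.11 (Birc5), 0.11 (Cdca8) and -0.26 (Incenp). In MPPs the log2 fold change of Aurkb was 0.57, with 62.5 and 78.9 CPM, then 100, 129 and 84.0 CPM.

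Cenpf, Knl1 and Smc4 were the 3 genes lower in HSCs at an unadjusted p under 0.05, 7.14% of the 42 against 4.47% of all genes. Cenpf, a long coiled-coil protein of the kinetochore, ran from 192 over 197 to 306 CPM in controls and from 101 over 142 to 211 CPM after MTP10-HDL (log2 fold change -0.59, SE 0.18, edgeR unadjusted p = 0.00418, FDR 0.372). MTP10-HDL libraries 3 and 4 reached the range of the controls and the other 4 lay below it. Knl1 ran from 142 over 195 to 222 CPM and from 106 over 136 to 185 CPM (-0.40, SE 0.16, edgeR unadjusted p = 0.027). Smc4, the core condensin subunit that compacts chromosomes, ran from 340 over 437 to 637 CPM and from 286 over 312 to 478 CPM (-0.37, SE 0.16, edgeR unadjusted p = 0.0381). Cenpe, the kinetochore motor that carries chromosomes to the spindle equator, ran from 194 over 247 to 344 CPM and from 122 over 200 to 261 CPM (-0.31, SE 0.18, edgeR unadjusted p = 0.0956). These groups overlapped for each gene. By technical group the difference of Cenpf was -0.21, -0.58 and -0.93, that of Smc4 -0.11, -0.21 and -0.70 and that of Knl1 0.03, -0.30 and -0.84, so it was largest in the third group (PBS 5, 6 and 7, MTP10-HDL 5 and 6). Without MTP10-HDL 1, Knl1 and Smc4 stood at -0.32 and -0.31 and no longer had an unadjusted p under 0.05.

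The common proliferation genes were close between the groups in HSCs. Mki67 ran from 1302 over 1489 to 1710 CPM in controls and from 874 over 1297 to 1521 CPM after MTP10-HDL (log2 fold change -0.22, SE 0.13, edgeR unadjusted p = 0.115). Cdk1 ran from 54.4 over 67.5 to 76.2 CPM and from 50.8 over 74.7 to 103 CPM (0.16, SE 0.17, edgeR unadjusted p = 0.355). The groups overlapped for both, with the treated range the wider. Ccnb1 ran from 18.2 over 29.1 to 45.5 CPM and from 20.4 over 33.4 to 44.0 CPM (0.10, SE 0.23, edgeR unadjusted p = 0.661). Top2a ran from 697 over 782 to 833 CPM and from 467 over 793 to 978 CPM (0.02, SE 0.15, edgeR unadjusted p = 0.896). By role, HSC medians ran from -0.21 (chromosome structure) and -0.19 (centromere and outer kinetochore) to 0.11 (chromosomal passenger complex). This order rested on single libraries. Without MTP10-HDL 4 the passenger complex stood at 0.02, below the 0.05 of the spindle checkpoint. Without PBS 4 it stood at 0.08, below the 0.17 of mitotic exit. Without MTP10-HDL 3 the outer kinetochore was lowest, at -0.21 against -0.18 for chromosome structure.

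The genomic span of a gene, from the first to the last annotated base, went with its HSC value. Across the 42 genes Spearman's rho between span and HSC log2 fold change was -0.53, against -0.12 over the 14834 tested genes with a span, and in MPPs -0.21 against -0.11. The 21 shorter genes (2.97 to 26.7 kb) had an HSC median of 0.07, with 16 higher, and the 21 longer ones (27.2 to 63.4 kb) a median of -0.14, with 8 higher. In MPPs all 21 genes of each kind were higher, with medians of 0.45 and 0.34. Genes are not independent replicates, so these values describe the 42 genes and carry no p.

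**Figure D5:**
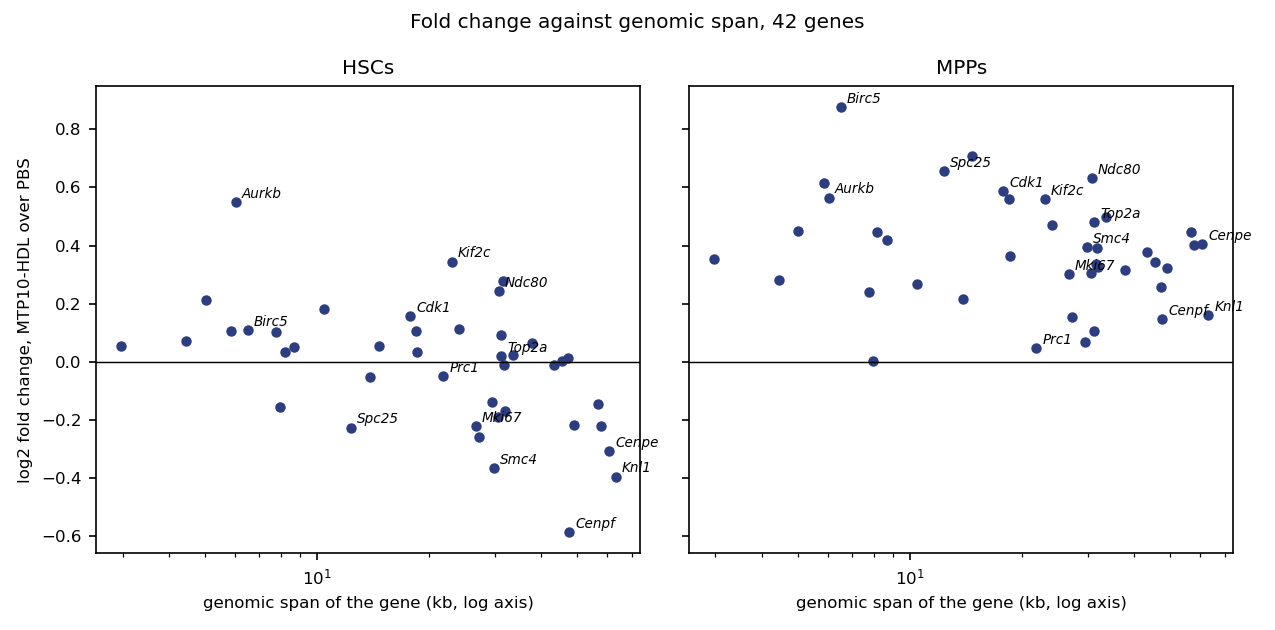
log2 fold change, MTP10-HDL over PBS, against genomic span (kb, log axis) for the 42 genes in HSCs (left) and MPPs (right), 1 point per gene. In HSCs the 21 shorter genes have a median of 0.07, from -0.23 (Spc25) to 0.55 (Aurkb). The 21 longer ones have a median of -0.14, from -0.59 (Cenpf) to 0.28 (Bub1), so the 2 kinds overlap widely. In MPPs no point lies below 0.

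The difference between the MPP and HSC responses was tested for each gene in 1 joint edgeR fit over 4 groups. This fit estimates the spread of each gene over both kits together. Kit and sequencing depth differ between the cell types, and no injection schedule is stated for the HSCs. Their part in the difference cannot be told apart from that of cell type. All 42 genes had a higher log2 fold change in MPPs than in HSCs, where 55.8% of the 24470 genes tested did. The differences ran from 0.04 (Aurkb) to 0.90 (Spc25) with a median of 0.41, against 0.09 over all genes tested. None of the 42 passed an FDR of 0.05 (each FDR 1), where 1 gene of all did (0.00409%), the predicted gene Gm43360, which is no mitotic gene and is named for that reason. At an unadjusted p under 0.05, edgeR had 5 of the 42 with a positive difference, against 1.19% of all genes, and 0 with a negative one, against 2.67%. Without HSC library MTP10-HDL 1 the median was 0.28 and 38 of the 42 differences were above 0.

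The 5 were Smc4, Spc25, Cenpe, Anln and Cenpf. Spc25 had a difference of 0.90 (SE 0.37, edgeR unadjusted p = 0.0221), from a log2 fold change of -0.23 in HSCs and 0.66 in MPPs. Smc4 had 0.78 (SE 0.30, edgeR unadjusted p = 0.017), from -0.37 and 0.39. The same order held for Cenpe (0.72, SE 0.33, edgeR unadjusted p = 0.0379), Cenpf (0.74, SE 0.35, edgeR unadjusted p = 0.0433) and Anln, the cleavage furrow protein anillin (0.65, SE 0.30, edgeR unadjusted p = 0.0397). Aurkb had the smallest difference, 0.04 (SE 0.31), with log2 fold changes of 0.55 in HSCs and 0.57 in MPPs.

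Other genes of the same pathways, grouped in lists that do not hold any of the 42, were read in the same way. These lists were chosen with earlier results of these data known and come from the same libraries, so they are no independent check. None of their genes passed an FDR of 0.05 in edgeR in either cell type. Of 34 further centromere and kinetochore genes 33 were higher in MPPs, with a median of 0.41 and 5 at an unadjusted p under 0.05, and 25 in HSCs, with a median of 0.10. Cenpi, of the inner kinetochore, was at 30.6 ± 0.936 CPM in control MPPs (SD, n = 2) and 53.8 ± 8.30 CPM after MTP10-HDL (n = 3). In HSCs Kntc1, which recruits dynein to the kinetochore, was at 93.6 ± 14.2 CPM (n = 7) and 115 ± 14.1 CPM (n = 6). Of 34 further spindle, cytokinesis and mitotic kinase genes 30 were higher in MPPs (median 0.18) and 15 in HSCs (median -0.05). Kif15, a spindle motor that backs up Kif11, was at 111 ± 1.78 CPM and 164 ± 11.8 CPM in MPPs. Ckap2, a microtubule-binding protein, was at 54.8 ± 9.39 CPM (n = 7) and 40.6 ± 10.5 CPM (n = 6) in HSCs.

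Of 31 genes of the anaphase-promoting complex, cohesin and securin, 29 were higher in MPPs (median 0.18) and 19 in HSCs (median 0.09). Fbxo5, the inhibitor Emi1 of the anaphase-promoting complex, was at 54.7 ± 5.86 and 80.6 ± 13.2 CPM in MPPs. Cdca5, which encodes the cohesin protector sororin, was at 46.6 ± 9.14 and 66.3 ± 17.4 CPM in HSCs. The 4 other condensin genes were higher in MPPs (median 0.24), among them Ncaph at 67.5 ± 10.5 and 102 ± 8.45 CPM, and 3 of them in HSCs (median 0.13). Of 32 G2 and mitotic gene regulators 24 were higher in MPPs (median 0.23) and 22 in HSCs (median 0.11), with Cks2, the Cdk1 subunit, at 25.7 ± 1.92 and 42.5 ± 7.23 CPM in MPPs and Pkmyt1, the kinase that restrains Cdk1, at 26.3 ± 5.15 and 35.5 ± 6.67 CPM in HSCs.

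S phase genes act before mitosis, in DNA replication and its supply. In MPPs 38 of 38 were higher, with a median of 0.48 and 15 at an unadjusted p under 0.05. With 1 library left out that count was 1 (without PBS 2), 3 (without PBS 3 or MTP10-HDL 1), 10 (without MTP10-HDL 3) or 20 (without MTP10-HDL 2), and the median 0.46 to 0.51. In HSCs 31 of 37 tested were higher, with a median of 0.22 and 8 at an unadjusted p under 0.05. Chaf1b, a chromatin assembly subunit, was at 46.8 ± 8.15 and 68.1 ± 16.3 CPM in HSCs. Genes linked to quiescence had 5 of 17 higher in MPPs (median -0.33) and 8 of 17 in HSCs (median -0.03). In MPPs their summed level was 1452 CPM in PBS 2 and 2788 CPM in PBS 3, then 1443, 1521 and 1513 CPM in MTP10-HDL libraries 1, 2 and 3. The groups overlapped, with PBS 3 alone standing high, and without it 10 of 18 tested were higher (median 0.06). Egr1, an immediate early transcription factor, was at 212 ± 189 and 59.9 ± 24.4 CPM in HSCs. Of 45 cytosolic ribosomal protein genes 44 had a log2 fold change above 0 in MPPs (median 0.41), none with an edgeR unadjusted p under 0.05. Their summed level was 31110 and 49500 CPM in controls and 41420, 78600 and 41040 CPM with MTP10-HDL, so only MTP10-HDL 2 exceeded both controls. Without it 30 of 45 were higher and the median was 0.03, and it was 0.10 without PBS 2 and 0.78 without PBS 3.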

How the data were processed

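The authors deposited 2 tables of raw counts per Ensembl gene, 13 HSC libraries and 5 MPP libraries. Per the labels' protocols HSC libraries came from amplified cDNA (single 50-base reads) and MPP libraries from poly-A RNA with insect carrier RNA and a directional kit. Per the submitters' processing notes reads were mapped to mm10 with STAR 2.5.2b (HSC, after CASAVA 1.8.2) or STAR 2.7.2a (MPP, with DESeq2 1.24 and R 3.6.1). For the counting tool, the annotation and strandedness, nothing is stated in the sources used here. Reads of genes that overlap a coding neighbour (Nusap1, Aurka, Ccna2, Cdc20, Ncapg, Prc1, Anln, Kif20a) or have pseudogene copies (Ccnb1, Ccnb2) may therefore be shared. The HSC columns carry PBS numbers 1 to 7, whereas 1 label is numbered 8, so PBS columns served as a group.

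The 2 tables were analysed separately with edgeR 4.0.16 (R 4.3.3): TMM scaling, filterByExpr at its defaults, quasi-likelihood F test, Benjamini-Hochberg over all genes tested. All 42 genes passed the filter in both cell types. A joint 4-group fit tested the difference between responses. Scripts were tested on simulated counts. Alternatives were DESeq2 1.42.0, RLE scaling, limma 3.58.1 voom, no filter, a stricter filter (at least 1 CPM in all libraries of a group), a replicate block, a technical group term (HSC) and leaving out each library.

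The 42 genes, the lists and the rule for naming genes were chosen with earlier results of these data known. The rule gives full statistics for genes past FDR 0.05 or, where fewer than 5 pass, the 5 of smallest p per comparison, plus Mki67, Cdk1, Ccnb1 and Top2a. From each pathway list it takes up to 3 genes past FDR 0.05, or else the 1 of smallest p. Outside the lists it takes the 5 genes most correlated with the mean of the 42 over HSC libraries. Some genes that the rule names are not reported here.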

Additional observations from a re-analysis of the deposited data

Results flagged for a closer look

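In 4 of 86 groups of HSC values examined (42 genes and their summed level, in 2 treatments) 1 library stood apart from the rest by Dixon's criterion, which chance alone gives in about 1 of 20 groups. Birc5 was at 89.5 CPM in PBS 1, with the next library at 57.8 CPM. Kif2c was also highest in PBS 1, at 34.4 CPM against 26.3 CPM. Racgap1 was at 125 CPM in PBS 6, with the next at 79.3 CPM. Ncapd2, a condensin subunit, was at 96.8 CPM in MTP10-HDL 1, with the next lowest at 195 CPM.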

How the results depend on the processing

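None of the 42 genes passed an FDR of 0.05 under any setting run. In MPPs the alternative settings other than leaving out 1 library left 39 to 42 genes higher, with medians of 0.34 to 0.39. These settings include the replicate block, which was run on fewer libraries. In HSCs these settings left 17 to 28 higher, with medians of -0.06 to 0.08. For the difference they left 40 to 42, with medians of 0.37 to 0.44. Leaving out 1 library gave medians of -0.03 to 0.14 in HSCs, 0.32 to 0.42 in MPPs and 0.28 to 0.49 for the difference. It gave 2 to 5, 0 to 18 and 1 to 8 of the 42 at an unadjusted p under 0.05, and 0 to 1, 0 to 17 and 0 to 2 genes of all past the FDR. Where a PBS library of the MPPs is left out, the lone control is assumed to vary like the treated pools.

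Genes of all past the FDR numbered 85 in HSCs, 181 in MPPs and 2 for the difference with DESeq2, and 44, 345 and 4 with no filter. The replicate block, run on fewer libraries, gave 43 in MPPs and 0 for the difference. Same-numbered libraries did not deviate together (correlations of -0.19 to 0.19 in HSCs and -0.17 to -0.03 in MPPs, with 1 of 6 HSC libraries closest to its own number), so the numbers were not taken as pairs. At an unadjusted p under 0.05 the block left 2 of the 42 in HSCs, 0 in MPPs and 0 for the difference. With MTP10-HDL 1 left out and no block, 2 of the 42 remained in MPPs. No filter left 2 in HSCs, and limma voom 9 for the difference. The cause of these changes was not tested. Top2a in HSCs changed sign, to -0.0092 with limma voom, -0.0147 with the stricter filter and -0.0184 with the block, and ran from -0.049 to 0.136 when 1 library was left out. The median of all genes moved to -0.15 in HSCs with no filter, and for the difference to 0.22 with no filter and -0.12 with limma voom. The lower genes still held many reads, with at least 91 counts per HSC library for Cdc25c, the lowest, 96 for Kif20a and 97 for Kif2c. The 2 control pools limit the MPP comparison.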
